A study of Mus musculus with 6 samples.

Results

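Described here are the amino acid and peptide transporter genes of mouse jejunal epithelium. They were taken as every gene on an array row with 1 symbol whose symbol begins with Slc1a, Slc3a, Slc6a, Slc7a, Slc15a, Slc36a, Slc38a or Slc43a, with Slc7a11 left out, and make up 68 of the 19938 genes tested. Expression was measured on 6 whole-transcript arrays, 3 from transgenic and 3 from control animals. Transgenic animals carried a Musashi transgene under a doxycycline-responsive promoter (TRE) together with R26-M2rtTA, and control animals carried R26-M2rtTA without it. The genotype label of the transgenic samples reads TRE-MSI2::R26-M2rtTA, while the text of the series names Msi1. Every animal of both groups drank doxycycline for 24 h before the epithelial cells were taken. M2rtTA is a transcriptional activator that acts only with doxycycline, and the Rosa26 locus that carries it is active in most tissues, so this driver does not limit induction to the epithelium. The sources used here give no strain, age or sex.

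Enterocytes take up the products of protein digestion as free amino acids and as short peptides through carriers of the apical brush border, and pass amino acids to the blood through carriers of the basolateral membrane. Several carriers are pairs of a light chain, which forms the transport path, and a heavy chain, which brings it to the membrane: Slc3a1 with Slc7a9 at the apical side, and Slc3a2 with Slc7a5, Slc7a6, Slc7a7 or Slc7a8. Other members of these families feed growing cells, move amino acids out of lysosomes, or carry neurotransmitters, taurine or creatine. Musashi proteins are RNA-binding regulators best studied in stem cells.

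Values are log2 signals, on which a difference of 1 is 2-fold, and ± is an SD over 3 arrays. A gene is said to have risen or fallen only where its limma adjusted p over all genes tested was under 0.05. Msi1 averaged 12.60 ± 0.09 on transgenic arrays and 6.94 ± 0.09 on control arrays, and rose by 5.66 (adjusted p = 1.34e-05). Msi2 averaged 8.22 ± 0.30 on transgenic arrays and 8.64 ± 0.06 on control arrays and did not pass (adjusted p = 0.168), and it fell by 0.59 when transgenic replicate 1 was left out (adjusted p = 0.0011). Of the names given for the transgene, the transcript that rose was thus that of Msi1, the name in the series text, and not that of the genotype label. Transgenic replicate 1 stood apart from all other arrays, with a correlation across genes of 0.922 to 0.951 with them, against 0.996 between transgenic replicates 2 and 3 and at least 0.995 between controls. Results are therefore also given without it, and a gene said to have risen or fallen without replicate 1 passed in that fit. Replicate 1 was singled out after its values were seen, and no label gives a reason to drop it. The fit without it rests on 2 transgenic arrays that lay close together. Its small adjusted p values therefore do not measure the spread among the 3 transgenic arrays. The 12 epithelial markers averaged 11.12 to 11.46 on transgenic arrays and 11.51 to 11.52 on control arrays, and 0 of them were among the dimmest 40% of genes. Of these 12, 1 rose (Cdh1) with all arrays (8.33%), against 11.9% of all genes. Without transgenic replicate 1, 1 rose and 3 fell (Vil1, Cdx1 and Cdx2). This is 33.3%, against 28.6% of all genes and 44.3% of the brighter 60% in that fit.

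Of the 68 transporter genes 6 rose and 2 fell. This is 11.8% of them, near the 11.9% of all genes that passed, 6.04% higher and 5.84% lower. Slc6a14, Slc7a5, Slc7a1, Slc6a6, Slc38a2 and Slc15a4 rose, and Slc6a20b and Slc38a11 fell. The median difference, transgenic minus control, was -0.03 for the transporter genes and -0.04 for all genes tested. Differences of at least 1 log2 unit in either direction were found for 14 of the 68 genes (20.6%), against 6.34% of all genes, and 9 of these 14 did not pass, 6 lower and 3 higher. A further 34 genes lay within 0.25 log2 units of no difference. The groups did not overlap for 27 transporter genes (39.7%), 13 higher and 14 lower, against 34.2% of all genes, 16% higher and 18.2% lower. With 3 arrays in each group the smallest two-sided p of an exact permutation test is 0.1.

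Of the 68 genes, 44 were among the brighter 60% of genes and 24 among the dimmest 40%. Of the 24, 2 passed, Slc6a14 and Slc38a11, against 142 of all 7975 genes in that range (1.78%). Among the brighter 60% of genes 13.6% of the 44 transporter genes passed, against 18.6% of all genes, while 27.3% differed by at least 1 log2 unit, against 10.2%. The files give no call of presence or absence, so a dim gene cannot be said to be off.

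**Figure D1:**
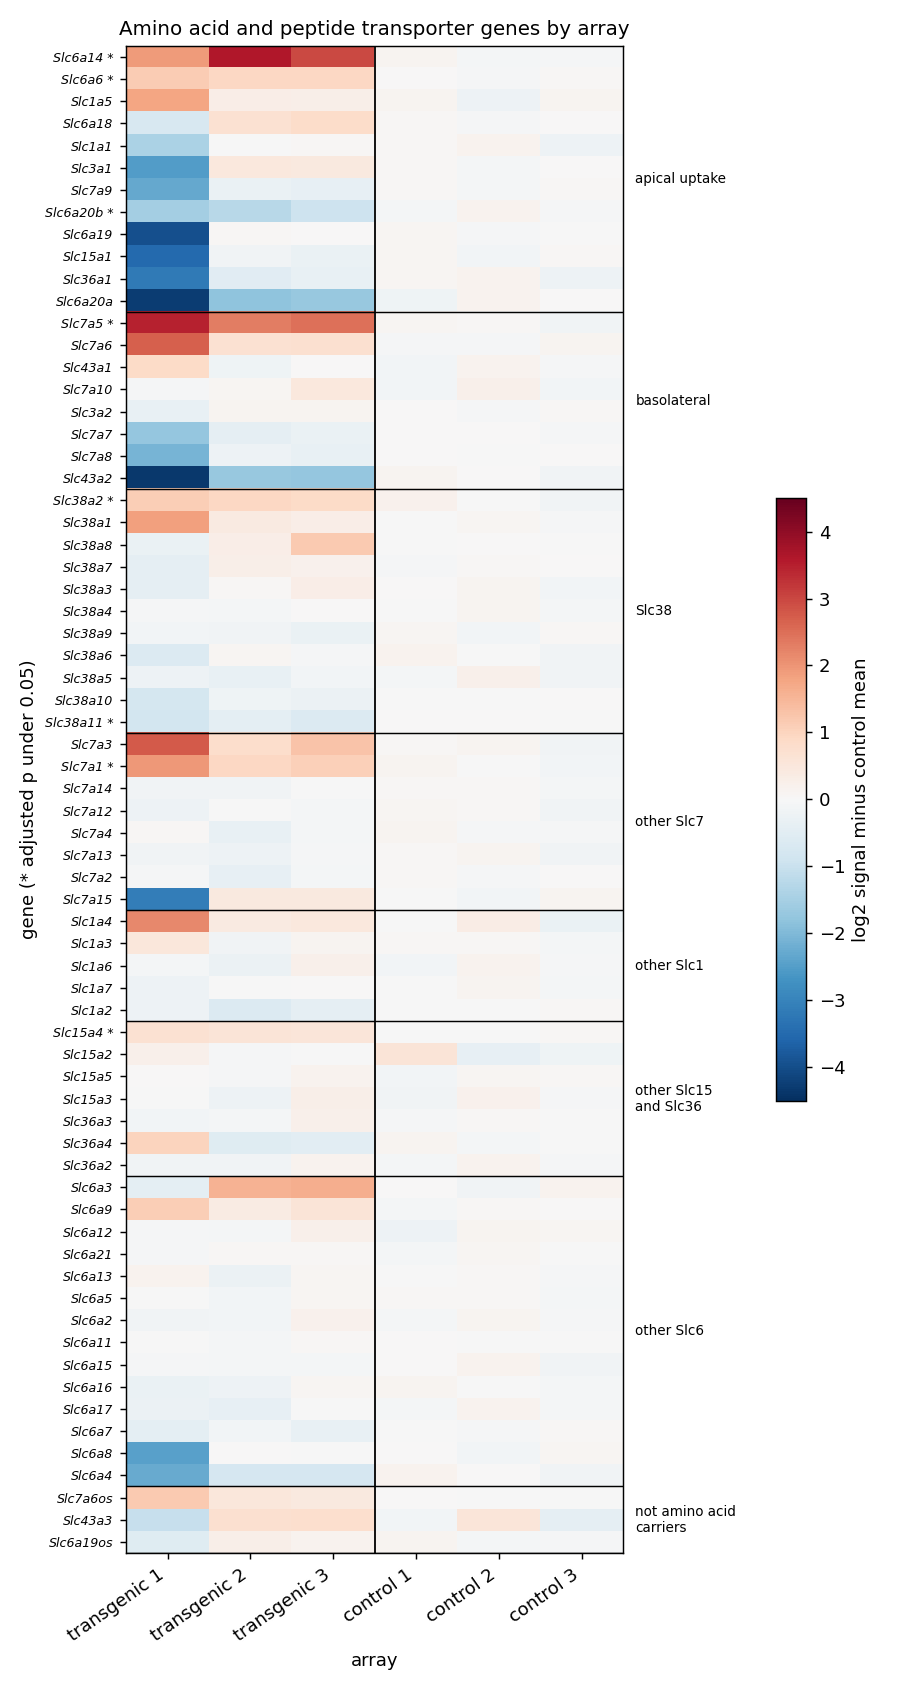
Log2 signal of each of the 68 genes minus its mean over the control arrays, by array (columns, transgenic left of control) and by role (blocks), with red above and blue below the control mean and a star for an adjusted p under 0.05. Slc7a5 and Slc6a14 are red on all 3 transgenic arrays, while Slc6a19, Slc15a1 and Slc3a1 are deep blue on transgenic replicate 1 and pale on replicates 2 and 3.

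Among the genes that rose were carriers that supply cells with amino acids. Slc7a5, the light chain of the exchanger for leucine and other large neutral amino acids, had log2 signals of 11.45, 10.27 and 10.44 on transgenic replicates 1, 2 and 3, against 8.08, 8.04 and 7.81 on control replicates 1, 2 and 3. Every transgenic array lay well above every control, with replicate 1 the highest. The gene rose by 2.74 (SE 0.313, adjusted p = 0.0053) or 6.70-fold, and it still passed after the removal of any 1 array. Slc38a2, a sodium-coupled carrier of small neutral amino acids that is known to be induced when amino acids are short, had 11.64, 11.45 and 11.39 on transgenic arrays, against 10.72, 10.49 and 10.36 on control arrays. Here the 3 transgenic arrays lay close together and above all controls. The rise was 0.97 (SE 0.124, adjusted p = 0.00724) or 1.96-fold, and it also passed after the removal of any 1 array.

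Promoter sequence was searched for the core of the amino acid response element, the motif bound by ATF4 that drives several genes when amino acids are short. The core was spelled TGATGNAA (TTNCATCA on the other strand) and was the only motif searched, on both strands of RefSeq promoter windows of GRCm38.p6, from 250 bases before to 50 bases after each start. Of the 68 genes 50 had an entry, and 4 of these (8%) held the motif, Slc1a4, Slc7a7, Slc6a21 and Slc15a5, against 4.51% of the 27025 genes in the table. None of these 4 passed. Of the genes that rose 4 had an entry and 0 of them held the motif, while Slc7a5 and Slc6a6 had no entry and were not searched. Of those that fell 2 had an entry and 0 held it. Shown from 250 bases before to 10 after the start, with the motif in capitals, are Slc38a2, a gene that rose and is known for this response, and Slc1a4 and Slc7a7, which hold the motif near the start and lay on opposite sides of the controls.
Slc38a2, chr15:96699719-96699978, minus strand: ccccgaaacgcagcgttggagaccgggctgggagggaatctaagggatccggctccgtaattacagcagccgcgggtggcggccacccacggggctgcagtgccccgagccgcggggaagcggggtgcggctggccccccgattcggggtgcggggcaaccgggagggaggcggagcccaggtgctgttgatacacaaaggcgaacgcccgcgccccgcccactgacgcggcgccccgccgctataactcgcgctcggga
Slc1a4, chr11:20332704-20332963, minus strand: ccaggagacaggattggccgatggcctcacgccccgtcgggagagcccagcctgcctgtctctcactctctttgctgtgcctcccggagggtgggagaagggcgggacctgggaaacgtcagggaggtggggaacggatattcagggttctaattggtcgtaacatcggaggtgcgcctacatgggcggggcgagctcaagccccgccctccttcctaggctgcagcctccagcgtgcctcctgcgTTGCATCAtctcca
Slc7a7, chr14:54417935-54418194, minus strand: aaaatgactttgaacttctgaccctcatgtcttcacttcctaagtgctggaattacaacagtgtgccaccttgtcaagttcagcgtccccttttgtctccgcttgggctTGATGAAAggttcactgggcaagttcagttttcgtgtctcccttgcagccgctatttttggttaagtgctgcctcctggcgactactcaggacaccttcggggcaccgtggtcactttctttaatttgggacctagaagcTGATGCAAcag
Counted from the start, the first base of the match is at -4 in Slc1a4 and at -141 and -1 in Slc7a7, in 1 of 5 windows listed for that gene. The Slc38a2 window holds no such letters. Sequence outside the windows was not searched, so a gene without a match here may hold the motif elsewhere. A match describes the sequence only.

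Carriers of cationic amino acids belong to the same supply group. Slc7a1, the main carrier of arginine and lysine into growing cells, had 10.48, 9.49 and 9.62 on transgenic arrays, against 8.67, 8.54 and 8.42 on control arrays. The groups did not overlap, and transgenic replicate 1 was the highest. It rose by 1.32 (SE 0.267, adjusted p = 0.0286) or 2.5-fold, but did not pass when transgenic replicate 3 or any 1 control was left out (adjusted p up to 0.117). Slc7a3, a related cationic carrier with a dim signal, had 7.67, 5.68 and 6.18 on transgenic arrays, against 4.95, 5.03 and 4.74 on control arrays. Its difference of 1.61 did not pass (adjusted p = 0.0969), although every transgenic array was above every control, and without transgenic replicate 1 it rose by 1.03 (adjusted p = 0.00132). Of the other Slc7 genes outside the absorption groups, Slc7a2, Slc7a4, Slc7a12, Slc7a13 and Slc7a14 differed by -0.17 to -0.10 and did not pass. Slc7a15, a mouse carrier that prefers aromatic amino acids, had 7.70, 11.24 and 11.24 on transgenic arrays, against 10.80, 10.69 and 10.91 on control arrays. Replicate 1 was far below the controls and replicates 2 and 3 above them, and the gene rose by 0.44 without replicate 1 (adjusted p = 0.00751) but did not pass with all arrays (-0.74, adjusted p = 0.721).

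Further carriers rose. Slc6a14, which takes up neutral and cationic amino acids with sodium and chloride, had 6.39, 8.08 and 7.46 on transgenic arrays, against 4.60, 4.40 and 4.44 on control arrays. Control signals were dim, in the range that RMA compresses, and transgenic replicate 1 was the lowest of its group but above all controls. It rose by 2.83 (SE 0.405, adjusted p = 0.01) or 7.11-fold on this compressed scale, which can understate the change, but did not pass when any 1 control was left out (adjusted p up to 0.0579). Slc6a6, the taurine carrier, had 11.84, 11.62 and 11.60 on transgenic arrays, against 10.69, 10.64 and 10.73 on control arrays. The SD was 0.13 on transgenic arrays and 0.05 on control arrays, and the rise of 1.00 (SE 0.0943, adjusted p = 0.00318) or 2.01-fold passed after the removal of any 1 array. Slc15a4, which moves histidine and short peptides out of endosomes and lysosomes, had 8.27, 8.15 and 8.15 on transgenic arrays, against 7.57, 7.56 and 7.64 on control arrays. The arrays of each group lay close together. It rose by 0.60 (SE 0.0787, adjusted p = 0.00773) or 1.52-fold, but did not pass when control replicate 1 was left out (adjusted p = 0.0555).

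**Figure D2:**
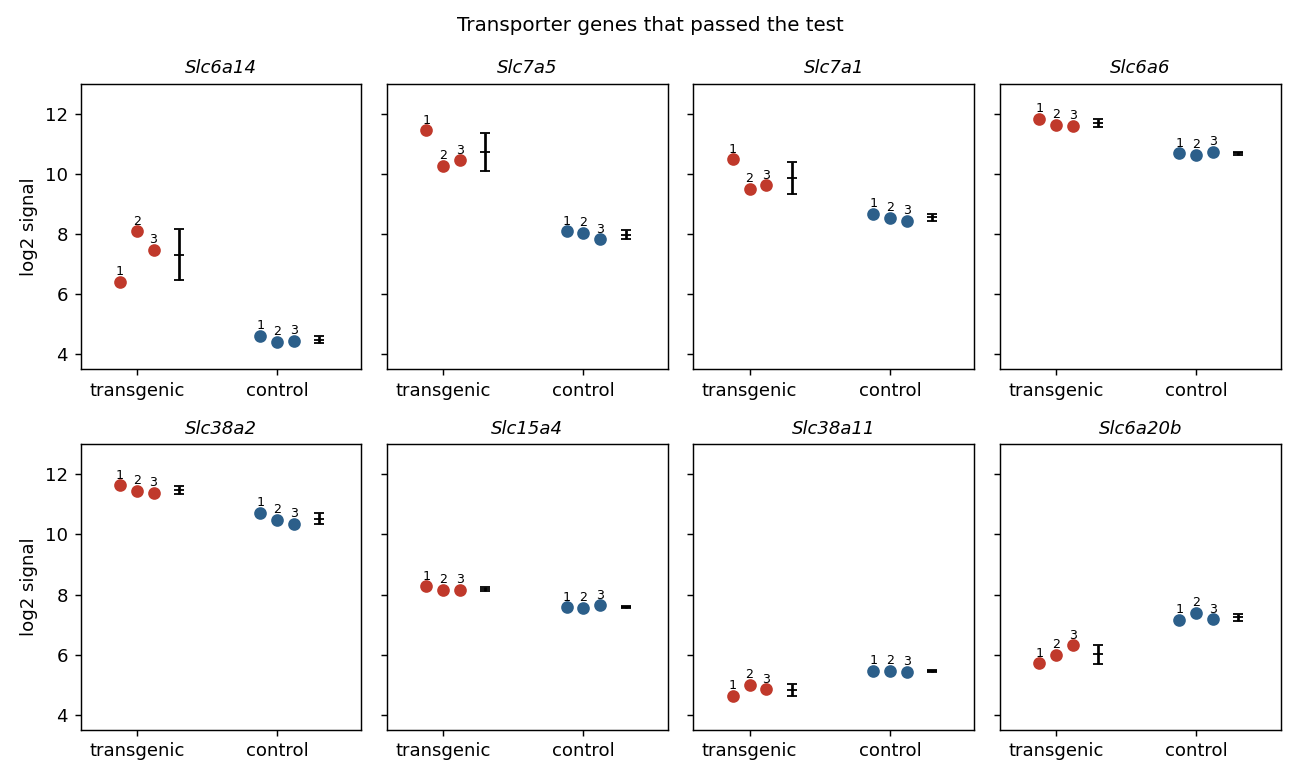
Log2 signal on each array (points, numbered by replicate) of the 8 transporter genes that passed, with the mean and SD of 3 arrays beside each group (transgenic left in red, control right in blue). No transgenic point overlaps a control point in any panel, and the transgenic SD is widest for Slc6a14.

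The apical uptake group had 12 genes, of which 2 rose (Slc6a14 and Slc6a6) and 1 fell (Slc6a20b). This is 25%, against 11.9% of all genes and 18.6% of the brighter 60%, and 1 of the 12 was among the dimmest 40%. Without transgenic replicate 1, 4 rose and 4 fell (66.7%), against 28.6% of all genes and 44.3% of the brighter 60%. The group's median difference was -0.76, against -0.04 over all genes. Set against the control mean, transgenic replicate 1 had a group median of -1.92, and replicates 2 and 3 averaged had one of 0.02. Slc6a20b, a paralog beside the proline carrier gene Slc6a20a on chromosome 9, had 5.71, 6.0 and 6.31 on transgenic arrays, against 7.16, 7.38 and 7.17 on control arrays. All transgenic arrays lay below all controls. It fell by 1.23 (SE 0.168, adjusted p = 0.00868), but did not pass when control replicate 2 was left out (adjusted p = 0.0514). Slc6a20a had 7.87, 10.35 and 10.46 on transgenic arrays, against 11.98, 12.31 and 12.18 on control arrays. Its groups did not overlap either, with replicate 1 far below the others. The difference of -2.60 (SE 0.689) did not pass (adjusted p = 0.0652), and without replicate 1 the gene fell by 1.75, a level 3.37-fold lower (adjusted p = 2.36e-05). Whether the rows of these paralogs pick up signal of each other was not tested.

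Other main apical carriers were low on transgenic replicate 1 and near the controls on replicates 2 and 3. Slc6a19, the sodium-coupled carrier of most neutral amino acids, had 8.05, 12.09 and 12.03 on transgenic arrays, against 12.11, 11.95 and 11.99 on control arrays. Replicate 1 alone was apart, and the difference was -1.29 with all arrays (adjusted p = 0.553) and 0.04 without replicate 1 (adjusted p = 0.834). Slc15a1, the proton-coupled carrier of dipeptides and tripeptides, had 8.96, 12.30 and 12.15 on transgenic arrays, against 12.53, 12.34 and 12.49 on control arrays. Its groups did not overlap, though replicates 2 and 3 lay close to the controls, and neither the difference of -1.32 (adjusted p = 0.446) nor that of -0.23 without replicate 1 (adjusted p = 0.125) passed. Slc1a1, which takes up glutamate and aspartate, had 8.76, 10.15 and 10.21 on transgenic arrays, against 10.24, 10.34 and 9.94 on control arrays. Its groups overlapped, and without replicate 1 the difference was 0.01 (adjusted p = 0.981).

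The chains of the exchanger for cystine and dibasic amino acids lay on different sides of the controls on replicates 2 and 3. Slc3a1, the heavy chain, had 9.15, 12.15 and 12.09 on transgenic arrays, against 11.72, 11.58 and 11.68 on control arrays. Replicates 2 and 3 were above all controls and replicate 1 far below them. It differed by -0.53 with all arrays (adjusted p = 0.766) and rose by 0.46 without replicate 1 (adjusted p = 0.00424). Slc7a9, the light chain, had 8.70, 10.70 and 10.65 on transgenic arrays, against 11.06, 10.91 and 11.05 on control arrays. All its transgenic arrays lay below the controls. The difference was -0.99 (adjusted p = 0.334), and without replicate 1 the gene fell by 0.33 (adjusted p = 0.0214).

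The remaining apical genes did not pass with all arrays. Slc36a1, a proton-coupled carrier of proline and glycine, had 8.11, 10.76 and 10.97 on transgenic arrays, against 11.38, 11.44 and 11.05 on control arrays. All transgenic arrays lay below all controls, with a difference of -1.34 (adjusted p = 0.352) and, without replicate 1, a fall by 0.42 (adjusted p = 0.0424). Slc1a5, a glutamine exchanger, had 10.41, 8.93 and 8.90 on transgenic arrays, against 8.76, 8.40 and 8.76 on control arrays. It was highest on replicate 1 and passed neither with nor without it (differences 0.77 and 0.27). Slc6a18, a carrier best known from kidney, had 5.68, 7.09 and 7.22 on transgenic arrays, against 6.44, 6.35 and 6.40 on control arrays. Replicate 1 was below and replicates 2 and 3 above all controls, and the gene rose by 0.76 without replicate 1 (adjusted p = 0.000345).

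Marker genes of other cell states also differed between transgenic replicate 1 and replicates 2 and 3. The 12 markers of villus enterocytes averaged 9.42 to 11.78 on transgenic arrays and 12.12 to 12.23 on control arrays, and 0 of 12 passed with all arrays. Their median against the controls was -2.56 on replicate 1, and -0.18 when replicates 2 and 3 were averaged, and 5 of the 12 fell when replicate 1 was left out, among them Slc2a2 by 1.43 and Sis by 1.17. The 8 Paneth cell markers averaged 9.48 to 11.86 on transgenic arrays and 10.48 to 10.59 on control arrays, with 0 of 8 passing with all arrays and medians of 1.13 on replicate 1 and -1.11 on replicates 2 and 3. Without replicate 1, 7 of these 8 fell and 1 rose, Nupr1, a gene that is also induced by stress. The 9 markers of proliferating crypt cells averaged 8.57 to 10.03 on transgenic arrays and 9.24 to 9.31 on control arrays, with 0 of 9 passing with all arrays and medians of 0.65 on replicate 1 and -0.81 on replicates 2 and 3. Without replicate 1, 7 of these 9 fell, among them Mki67 by 0.97 (adjusted p = 0.000124). In that fit 28.6% of all genes passed, 14% higher and 14.5% lower, and 44.3% of the brighter 60%. In the medians replicate 1 was low for villus genes and high for Paneth and proliferation genes, while replicates 2 and 3 were below the controls for all 3 lists. The 10 markers of T and NK cells averaged 5.56 to 7.32 on transgenic arrays and 7.66 to 7.84 on control arrays, and 1 of 10 fell, Cd8b1, with medians of -2.21 on replicate 1 and -0.49 on replicates 2 and 3, and 6 of 10 fell without replicate 1. Of other cell types, 1 of 8 markers of B and plasma cells (Blnk) and 1 of 8 of endothelial cells (Lyve1) rose. Each is 12.5%, near the 11.9% of all genes that passed with all arrays. None of 9 fibroblast, 10 macrophage and dendritic cell, 7 smooth muscle, 6 neuron and glia, 7 pancreatic acinar and 2 red blood cell markers passed with all arrays. Without replicate 1 the fibroblast marker Dcn, the macrophage marker Lyz2 and the endothelial marker Esam fell and the myeloid marker Itgam rose, while the lists of smooth muscle, neurons and glia, acinar and red blood cells had 0 calls. No marker is at 0 on a log2 array scale. In bulk preparations fewer cells of a type and less RNA per cell cannot be told apart, and the part of these markers in the transporter results was not tested.

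**Figure D3:**
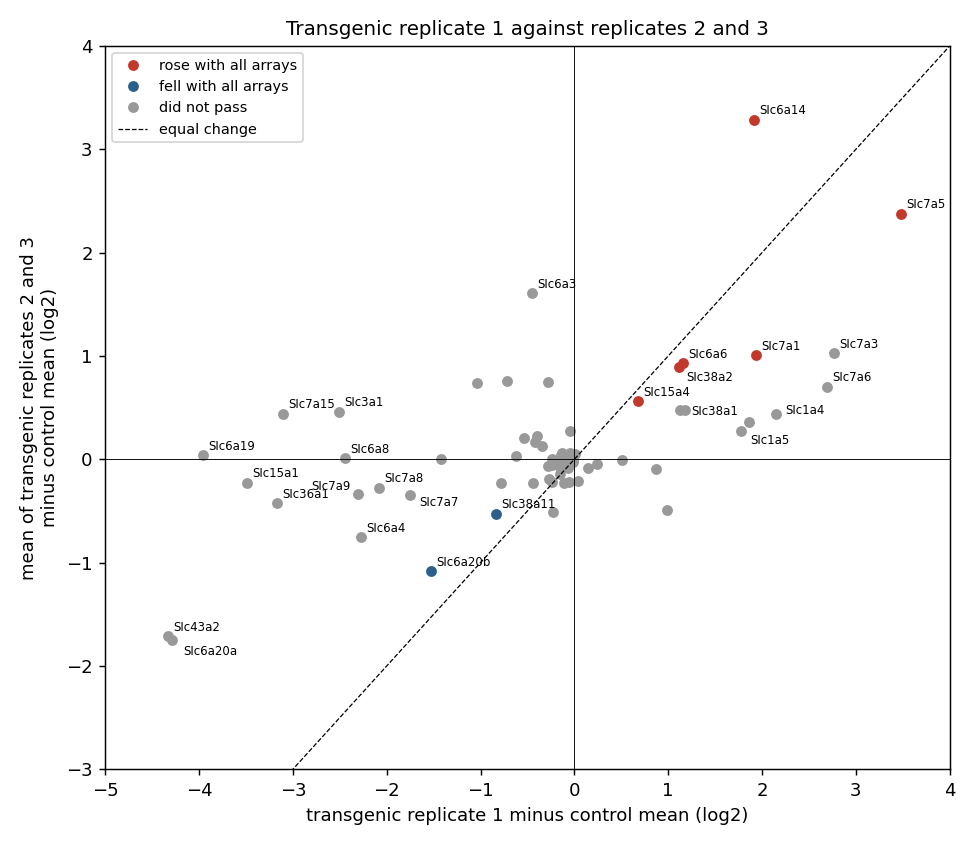
Each point is 1 of the 68 genes, with its log2 difference from the control mean on transgenic replicate 1 (x axis) and on the mean of transgenic replicates 2 and 3 (y axis); red rose, blue fell and grey did not pass with all arrays. Slc6a19 and Slc15a1 lie far left but near 0 on the y axis, Slc7a5 and Slc6a14 lie high on both axes, and Slc6a20a and Slc43a2 low on both.

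The basolateral group had 8 genes, of which 1 rose, Slc7a5, and 0 fell (12.5%, against 11.9% of all genes, with a median difference of 0.07). Without transgenic replicate 1, 2 rose and 3 fell (62.5%), against 28.6% of all genes. Slc3a2, the heavy chain that Slc7a5 and the other light chains share, had 12.01, 12.48 and 12.49 on transgenic arrays, against 12.36, 12.31 and 12.39 on control arrays. Its groups overlapped, and the difference was -0.03 with a 95% interval of -0.39 to 0.33 (adjusted p = 0.938). Slc7a6, a light chain for exchange of arginine and glutamine, had 9.91, 7.90 and 7.94 on transgenic arrays, against 7.15, 7.18 and 7.33 on control arrays. Every transgenic array was above the controls, and the difference of 1.36 did not pass (adjusted p = 0.183), while without replicate 1 the gene rose by 0.70 (adjusted p = 0.000616).

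The light chains Slc7a7 and Slc7a8, for basolateral exit, were lower on every transgenic array than on the controls. Slc7a7, through which arginine and lysine leave the cell and which holds the ATF4 core motif in 1 of 5 promoter windows, had 9.79, 11.15 and 11.25 on transgenic arrays, against 11.56, 11.56 and 11.50 on control arrays. Slc7a8, a light chain for neutral amino acids, had 9.69, 11.55 and 11.46 on transgenic arrays, against 11.78, 11.75 and 11.80 on control arrays. Neither gene passed with all arrays (differences -0.81 for Slc7a7 and -0.88 for Slc7a8). Without replicate 1 Slc7a7 fell by 0.34 (adjusted p = 0.0143) and Slc7a8 fell by 0.27 (adjusted p = 0.0364). Slc43a2, which lets branched-chain amino acids and phenylalanine leave the cell, had 7.01, 9.64 and 9.62 on transgenic arrays, against 11.46, 11.37 and 11.20 on control arrays. Its groups were far apart, with replicate 1 the lowest. The difference of -2.59 (SE 0.71) did not pass (adjusted p = 0.072), and without replicate 1 the gene fell by 1.71, a level 3.28-fold lower (adjusted p = 1.44e-05). Its relative Slc43a1 had 6.69, 5.64 and 5.82 on transgenic arrays, against 5.70, 5.99 and 5.78 on control arrays, and its groups overlapped (difference 0.23). Slc7a10, also dim, differed by 0.17 (adjusted p = 0.632).

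The Slc38 family of neutral amino acid carriers had 11 genes, of which Slc38a2 rose and Slc38a11 fell (18.2%, against 11.9% of all genes). Slc38a11, a little studied member with a dim signal, had 4.62, 5.00 and 4.85 on transgenic arrays, against 5.47, 5.46 and 5.43 on control arrays. All transgenic arrays lay below the controls. It fell by 0.63 (SE 0.113, adjusted p = 0.0203), but did not pass when transgenic replicate 3 or any 1 control was left out (adjusted p up to 0.0984). Slc38a1, which lies next to Slc38a2 on chromosome 15, had 10.55, 9.11 and 8.99 on transgenic arrays, against 8.67, 8.78 and 8.62 on control arrays. It was highest on replicate 1, with a difference of 0.86 (adjusted p = 0.274), and rose by 0.36 without it (adjusted p = 0.0178). Slc38a4, on the other side of Slc38a2, was dim and differed by -0.04. The other 7 genes of the family differed by -0.41 to 0.41 and did not pass with all arrays, among them Slc38a9, the arginine sensor of the lysosome (-0.19, adjusted p = 0.331). One of the 7, Slc38a8, a glutamine carrier best known from the eye, had 5.63, 6.23 and 7.11 on transgenic arrays, against 5.91, 5.95 and 5.89 on control arrays. Replicate 1 was below and replicates 2 and 3 above all controls, and the gene rose by 0.75 without replicate 1 (adjusted p = 0.0317).

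The other 5 Slc1 genes, mostly glutamate carriers, differed by -0.42 to 1.01, and 0 passed. Slc1a4, which exchanges alanine, serine and cysteine and whose promoter window holds the ATF4 core motif, had 9.31, 7.55 and 7.65 on transgenic arrays, against 7.15, 7.48 and 6.85 on control arrays. It was high mainly on replicate 1, with differences of 1.01 with all arrays (adjusted p = 0.279) and 0.44 without replicate 1 (adjusted p = 0.0885). Slc1a2, a glutamate carrier best known from astrocytes, had 6.29, 5.91 and 6.10 on transgenic arrays, against 6.48, 6.49 and 6.57 on control arrays. All transgenic arrays were below all controls, and the gene fell by 0.51 without replicate 1 (adjusted p = 0.00359). Of 7 other genes of the Slc15 and Slc36 families Slc15a4 rose, and the other 6 differed by -0.06 to 0.05. Of these, Slc36a4, which carries proline and tryptophan, had 7.60, 6.08 and 6.15 on transgenic arrays, against 6.74, 6.51 and 6.59 on control arrays, with replicate 1 above and replicates 2 and 3 below all controls. It fell by 0.49 without replicate 1 (adjusted p = 0.00498).

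The group of neurotransmitter, osmolyte and creatine carriers of the Slc6 family had 14 genes, and 0 passed with all arrays. Slc6a3, the dopamine carrier of neurons, had 6.41, 8.42 and 8.51 on transgenic arrays, against 6.89, 6.70 and 7.0 on control arrays. Replicate 1 lay below and replicates 2 and 3 above all controls. The difference was 0.92 with all arrays (adjusted p = 0.397), and without replicate 1 the gene rose by 1.6 or 3.04-fold (adjusted p = 2.82e-05). Slc6a4, the serotonin carrier with which enterocytes clear serotonin, had 8.39, 9.92 and 9.91 on transgenic arrays, against 10.82, 10.69 and 10.50 on control arrays. Every transgenic array was below every control, with a difference of -1.26 (adjusted p = 0.122) and, without replicate 1, a fall by 0.75 (adjusted p = 0.00114). Slc6a9, a glycine carrier, had 9.89, 9.15 and 9.34 on transgenic arrays, against 8.69, 8.83 and 8.79 on control arrays. Its transgenic arrays were all above the controls, with a difference of 0.69 (adjusted p = 0.0762), and it rose by 0.48 without replicate 1 (adjusted p = 0.00591). Slc6a8, the creatine carrier, had 9.50, 11.97 and 11.94 on transgenic arrays, against 11.96, 11.83 and 12.04 on control arrays, so only replicate 1 was apart. The other 10 genes of the group differed by -0.30 to 0.03.

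Without transgenic replicate 1, 17 transporter genes rose and 11 fell, which is 41.2% of the 68, against 28.6% of all genes in that fit (14% higher and 14.5% lower). Among the brighter 60% of genes it was 56.8% of the 44 transporter genes, against 44.3% of all. The 8 genes that passed with 6 arrays all passed in the same direction in this fit. With any other array left out 3 to 6 genes rose and 0 to 2 fell. In these fits 5.86% (without transgenic replicate 2), 8.82% (transgenic replicate 3), 3.43% (control replicate 1), 3.65% (control replicate 2) and 4.41% (control replicate 3) of all genes passed. The gap between transgenic replicate 1 and the mean of replicates 2 and 3 was over 1 log2 unit for 25 of the 68 genes (36.8%), against 10.8% of all genes. Of these 25, 18 had replicate 1 below replicate 2, as did 1064 of the 2163 such genes among all tested. Replicate 1 and the mean of replicates 2 and 3 lay on opposite sides of the control mean for 27 of the 68 genes (39.7%), against 30.7% of all genes. The median gap between replicates 2 and 3 was 0.13 both for the transporter genes and for all genes.

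Genes that release, carry or sense the same amino acids were compared from lists of their pathways. These lists were chosen with earlier results of these data known. Of 30 measured peptidases, which release amino acids and short peptides, 0 rose and 3 fell (10%), against 11.9% of all genes. Cndp1, which splits dipeptides such as carnosine, had 5.19, 6.30 and 6.22 on transgenic arrays, against 9.01, 8.98 and 9.02 on control arrays. All transgenic arrays lay far below the controls. It fell by 3.10 (adjusted p = 0.00331) and passed after the removal of any 1 array. Rnpep, an aminopeptidase, fell by 0.36 (adjusted p = 0.0347), and Dpp3, a dipeptidyl peptidase of the cytosol, fell by 0.36 (adjusted p = 0.0402). Both passed without transgenic replicate 1 but not when any other array was left out (adjusted p up to 0.142 for Rnpep and 0.175 for Dpp3). The median of the peptidases was -0.49, against -0.04 for all genes, and replicate 1 had a median of -1.02 against the controls, while replicates 2 and 3 averaged had one of -0.12. Without replicate 1, 2 peptidases rose and 11 fell (43.3%), against 28.6% of all genes in that fit, 14% higher and 14.5% lower. This share was near the 44.3% of the brighter 60% of genes that passed in that fit.

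Of 28 amino acid and related carriers of other families, many of them mitochondrial, 2 rose and 5 fell (25%), against 11.9% of all genes, with a median of -0.14. Without transgenic replicate 1, 5 rose and 8 fell (46.4%), against 28.6% of all genes. Slc25a15, which exchanges ornithine and citrulline across the inner mitochondrial membrane, had 9.32, 9.67 and 9.63 on transgenic arrays, against 10.87, 10.74 and 10.77 on control arrays. The groups were clearly apart, and it fell by 1.26 (adjusted p = 0.00304). Sfxn1, which carries serine into mitochondria, fell by 0.67 (adjusted p = 0.006), and both passed after the removal of any 1 array. Slc44a1, a choline carrier, fell by 0.93 (adjusted p = 0.0143), but did not pass when control replicate 1 or 3 was left out (adjusted p up to 0.0756). Slc17a8, a vesicular glutamate carrier with a dim signal, rose by 0.53 (adjusted p = 0.0146), but did not pass when any 1 control was left out (adjusted p up to 0.076). The others that passed, named after their values were seen, were the mitochondrial glycine carrier Slc25a38, which rose by 0.57, the mitochondrial glutamate carrier Slc25a22, which fell by 1.20, and the lysosomal cysteine carrier Mfsd12, which fell by 0.67. These 3 did not pass when transgenic replicate 2 or any 1 control was left out, nor did Slc25a38 and Slc25a22 when transgenic replicate 3 was. Adjusted p reached 0.116 for Slc25a38, 0.126 for Slc25a22 and 0.0869 for Mfsd12.

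Of 49 genes of amino acid sensing 14 rose and 2 fell (32.7%, median 0.13), against 11.9% of all genes and 18.6% of the brighter 60%. Of the 49, 5 were among the dimmest 40%. Because the list was chosen with earlier results of these data known, its share cannot tell an excess of the pathway from the choosing. Asns, the asparagine synthetase that ATF4 induces, had 12.35, 12.04 and 12.08 on transgenic arrays, against 10.51, 10.29 and 10.53 on control arrays. The transgenic arrays lay close together and above the controls, with a rise of 1.71 or 3.28-fold (adjusted p = 0.00158). Eif4ebp1, which restrains translation, rose by 1.48 (adjusted p = 0.00362), and Ddit4, which restrains mTORC1, rose by 1.49 (adjusted p = 0.00479). Nprl2, a part of the GATOR1 complex that holds mTORC1 off when amino acids are short, had 6.82, 7.10 and 7.05 on transgenic arrays, against 7.88, 7.94 and 7.77 on control arrays. It fell by 0.87 (adjusted p = 0.00609), and these 4 genes passed after the removal of any 1 array.

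The other members that passed are named after their values were seen. Wdr24 of the GATOR2 complex, which opposes GATOR1, fell by 0.68 (adjusted p = 0.00658), and the mTORC1 subunit Mlst8 rose by 1.04 (adjusted p = 0.0066), both also after the removal of any 1 array. Atf4 itself rose by 0.64 (adjusted p = 0.0348), but did not pass when transgenic replicate 2 or 3 or any 1 control was left out (adjusted p up to 0.122). Rraga and Rragc, GTPases that bring mTORC1 to the lysosome, rose by 0.74 and 0.77, and Lamtor3 and Lamtor5 of their anchor rose by 0.75 and 0.51. Fnip2, Chac1, Sesn2, Atf5 and Cebpg rose by 0.51 to 1.19. Each of these 9 lost its call after the removal of at least 1 array other than transgenic replicate 1 (adjusted p up to 0.0579 for Rraga and up to 0.183 for Chac1). Without transgenic replicate 1, 22 genes of the list rose and 6 fell (57.1%), against 28.6% of all genes and 44.3% of the brighter 60% in that fit. With any other array left out 4 to 11 rose and 2 fell, where 3.43% to 8.82% of all genes passed. Among the genes of the list that did not pass with all arrays were Ddit3, Trib3 and Cebpb, also named after their values were seen. They differed by 0.24, 0.20 and 0.01. Without transgenic replicate 1 Ddit3 rose by 0.64 (adjusted p = 0.0284), and Trib3 and Cebpb did not pass.

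**Figure D4:**
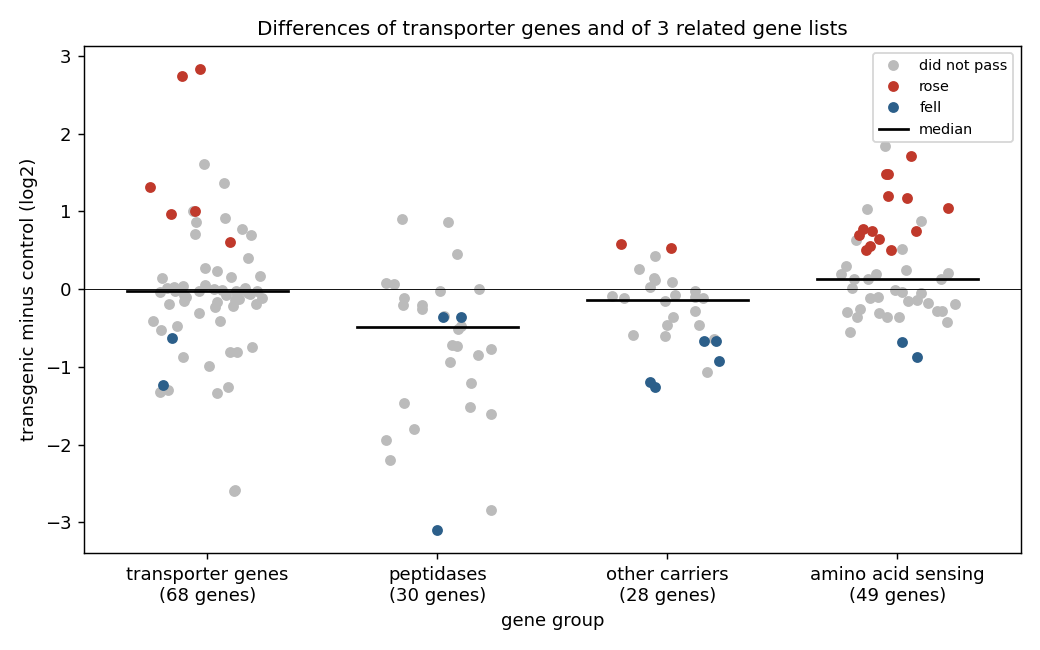
Log2 difference, transgenic minus control, of each gene (points) among the 68 transporter genes and 3 related lists, with genes that rose in red, those that fell in blue, those that did not pass in grey and the median as a bar. Medians lie at -0.03 for the transporter genes, -0.49 for peptidases, -0.14 for other carriers and 0.13 for amino acid sensing.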

How the data were processed

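The labels' protocols state that 250 ng of total RNA per array was amplified and biotinylated for Affymetrix mouse Gene 1.0 ST arrays. The values deposited by the authors are log2 signals, and the submitters' processing notes name Partek 6.5 and RMA, which corrects background, makes the distributions of the arrays alike and sums probes into rows. A change in total RNA per cell therefore cannot show, and dim signals are compressed. The sources used here state no other settings.

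Rows were named from the platform annotation (21789 of 35399 had 1 symbol). Of several rows of a gene the one with the highest mean was kept, which gave 19938 genes. Slc38a1 and Slc38a9 had a second row, whose differences of 0.72 and -0.08 did not pass either. All 68 transporter genes matched RefSeq by Entrez ID. Arrays were grouped by sample titles, which call them biological replicates. Transgenic minus control was fitted with limma 3.58.1 in R 4.3.3 (lmFit, eBayes) with Benjamini-Hochberg adjustment over all genes, after the script was tested on simulated data. The small number of arrays limits the precision.

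Genes named by rule were Msi1, Msi2, every transporter gene that passed, and 19 carriers of the apical and basolateral groups. Also named by rule were those past 1 log2 unit without transgenic replicate 1, and up to 4 genes per list with the smallest p. Other transporter genes were named after their values were seen. Members and lists were chosen with earlier results of these data known. Title numbers were not taken as pairs in the main fit. Deviations of same-numbered arrays had correlations of -0.07, -0.17 and -0.12, and those of differently numbered arrays -0.02 to 0.15. With 3 arrays per group and transgenic replicate 1 apart, these values cannot decide whether the numbers mark pairs. Alternatives were equal array medians, the dimmest 40% of genes left out, a block on the numbers of titles or of descriptions, array weights, trend and robust options of eBayes, all rows tested, averaged rows per gene, each array left out in turn, and replicate 1 of both groups left out.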

Additional observations from a re-analysis of the deposited data

How the results depend on the processing

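With all arrays 6 transporter genes were higher and 2 lower. The count was 14 higher and 7 lower with replicate 1 of both groups left out, 13 and 8 with array weights, and 5 and 1 with a replicate block on the title numbers. A replicate block on the description numbers gave 14 and 6, but numbers 1 and 2 each occur on 1 array (replicate 1 of the transgenic and of the control group), so this block takes both from the contrast and is no separate check of pairing. Of all genes 11.9% passed with all arrays, 22.9% without both replicates 1, 28.9% with array weights, 3.68% with the title block and 20.2% with the description block. Leaving out each array in turn gave 3 to 17 higher and 0 to 11 lower, with the most without transgenic replicate 1 and the fewest without a control. Peptidases, 0 higher and 3 lower, became 3 and 7 with the description block, 3 and 7 with array weights, and 2 and 10 without both replicates 1. Their lower count was 1 with equal medians, the title block, trend and robust settings, or all rows tested, and leave-one-out ranged from 0 to 2 higher and 1 to 11 lower. Other carriers, 2 higher and 5 lower, became 0 and 2 with the title block and 4 and 8 with array weights. Their higher count was 1 without dim genes and 4 with the description block or without both replicates 1, and leave-one-out ranged from 0 to 5 higher and 2 to 8 lower. Amino acid sensing, 14 higher and 2 lower, became 5 and 1 with the title block, and its lower count 6 with array weights, while leave-one-out ranged from 4 to 22 higher and 2 to 6 lower. Between the fits with and without transgenic replicate 1, the sign of the difference changed for 15 of the 68 transporter genes. Slc3a1 was among them, with 0.49 under the description block and without both replicates 1, and -1.04 to 0.46 with 1 array left out. Of the 8 transporter genes that passed, Slc15a4 (adjusted p = 0.0656) and Slc38a11 (adjusted p = 0.0759) did not pass with the title block, and 0 of the 8 reversed under any alternative. Slc6a20a passed without dim genes (adjusted p = 0.0476). The causes were not tested. Fits with fewer arrays also have fewer degrees of freedom, and the part of this in the counts was not tested. Over all genes the calls ranged from 683 without control replicate 1 to 5770 with array weights. Dim genes, 24 of the 68, have compressed differences.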

Other observations

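Some transporter genes lie next to each other, with 9 such pairs among protein-coding genes in the order of RefSeq on GRCm38.p6, and their values are given here without a test. Slc36a1 differed by -1.34, while its neighbour Slc36a2 differed by -0.06 and Slc36a3 by 0.00. Slc6a18 differed by 0.27 beside Slc6a19 at -1.29. Slc7a6os, named as the opposite strand of Slc7a6 and not a transporter, had 9.24, 8.58 and 8.48 on transgenic arrays, against 8.07, 8.05 and 8.05 on control arrays. It lay above the controls on every transgenic array, as Slc7a6 did, and rose by 0.47 without transgenic replicate 1 (limma adjusted p = 0.00277). Whether the rows of Slc7a6 and Slc7a6os share signal was not tested. Slc6a19os, named as the opposite strand of Slc6a19, had 5.71, 6.5 and 6.41 on transgenic arrays, against 6.39, 6.16 and 6.20 on control arrays, and its groups overlapped. Slc43a3, known as a carrier of purine bases, had 6.10, 7.86 and 7.91 on transgenic arrays, against 7.02, 7.67 and 6.74 on control arrays. Its groups overlapped with all arrays, and it rose by 0.74 without transgenic replicate 1 (limma adjusted p = 0.0457).

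Of the peptidases that did not pass with all arrays, Mme, which trims peptides at the brush border, had 6.74, 10.70 and 10.47 on transgenic arrays, against 12.26, 12.09 and 12.06 on control arrays. All transgenic arrays lay below all controls, and it fell by 1.55 without transgenic replicate 1 (limma adjusted p = 3.09e-05). Tpp1, a peptidase of the lysosome, had 9.30, 10.23 and 10.22 on transgenic arrays, against 8.97, 9.12 and 9.08 on control arrays, and rose by 1.17 without transgenic replicate 1 (limma adjusted p = 4.34e-05). Slc16a10, a basolateral carrier of aromatic amino acids from another family, had 9.09, 11.42 and 11.41 on transgenic arrays, against 11.11, 11.09 and 11.12 on control arrays. Replicate 1 was far below and replicates 2 and 3 above all controls, as for Slc3a1. These genes are named after their values were seen.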
